A study of Mus musculus with 6 samples.

Results

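The genes described here make, break down and sense prostaglandins. They were chosen by name for their place in the pathway and not for their values, and they number 10 of the 48440 genes listed in each library. Ptgs1 and Ptgs2 encode the cyclooxygenases, Ptges, Ptges2 and Hpgds encode terminal prostaglandin synthases, Hpgd encodes the degrading enzyme, and Ptger1, Ptger2, Ptger3 and Ptger4 encode the receptors of prostaglandin E2. RNA-seq was performed on small intestinal adenomas of mice on a C57BL/6 background, all older than 42 days, in 3 libraries labelled ApcMin PCdel (QC3, QC8 and QC10) and 3 labelled ApcMin WT (QC4, QC5 and QC6). Every mouse carried ApcMin, the mutant Apc allele that gives rise to intestinal adenomas, and Rosa26 iDTA/WT, a diphtheria toxin A subunit (DTA) cassette that stays silent until Cre acts on it. PCdel mice carried in addition Defa4-Cre, an IRES-Cre knock-in at Defa4 that was made in 129/svJ embryonic stem cells and turns the toxin on in the Paneth cell (PC) lineage. The WT mice were littermates without Cre, so that WT refers to the Paneth cell lineage and not to Apc or Rosa26, and the mice were co-housed. The comparison asks whether depletion of the Paneth cell lineage came with a different prostaglandin pathway in the adenoma.

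Prostaglandins are lipid signals made on demand. Phospholipases free arachidonic acid from membranes, a cyclooxygenase turns it into the unstable intermediate prostaglandin H2, and terminal synthases convert that into prostaglandin E2, D2 or other products. Prostaglandin E2 acts on G protein-coupled receptors and is inactivated within cells by hydroxyprostaglandin dehydrogenase, the product of Hpgd. In Apc mutant mice, deletion of either cyclooxygenase gene lowers polyp number, and cyclooxygenase inhibitors are used against intestinal polyps in people. Values are FPKM (fragments scaled for transcript length and for the total of the library), so levels of different genes can be set side by side. The order of some genes differed by the mean read coverage that was also deposited.

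Across all genes, the libraries held 22671 to 23430 genes above 0 and between 5.41 and 5.88 gigabases of aligned sequence. QC6 stood apart, with a median absolute log2 difference of 0.211 to 0.262 from the other libraries against 0.111 to 0.177 among those. The Paneth cell genes Lyz1, Defa21 and Defa22, which the study had itself picked out in these libraries, were lower in each PCdel library than in each WT library, with log2 fold changes of -0.95, -2.98 and -2.77 at limma adjusted p of 0.979, 0.309 and 0.309. All 9 Paneth cell markers measured had a negative log2 fold change (7 of 9 without QC6), and Lyz1 was at 950 to 1150 FPKM in PCdel adenomas, so Paneth cell transcripts were lower and not absent. Epithelial markers summed to 4730 to 5910 FPKM in WT and 5020 to 6450 in PCdel adenomas. In whole tissue, fewer cells of a type and less RNA per cell cannot be told apart. The labels do not tie each library to a separate mouse, and p-values measure the spread between these libraries.

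Of the 10 prostaglandin genes, 8 had a mean of at least 1 FPKM and were tested with limma among 14240 genes. None of the 8 passed an adjusted p of 0.05, a threshold passed by 0.014% of the genes tested, namely Hist2h2aa1 and Rab43 (named after their values were seen). An unadjusted limma p under 0.05 was reached by 1 of the 8, Ptgs2, against 3.38% of all genes tested, or 2.7% with higher values in PCdel adenomas. The groups did not overlap for 1 of the 8, again Ptgs2, against 7.54% of all genes tested, or 6.0% when counted only in the direction of higher values in PCdel adenomas. The median log2 fold change of the 8 genes was 0.09, beside 0.04 for all genes tested. The other 7 genes had overlapping groups.

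**Figure D1:**
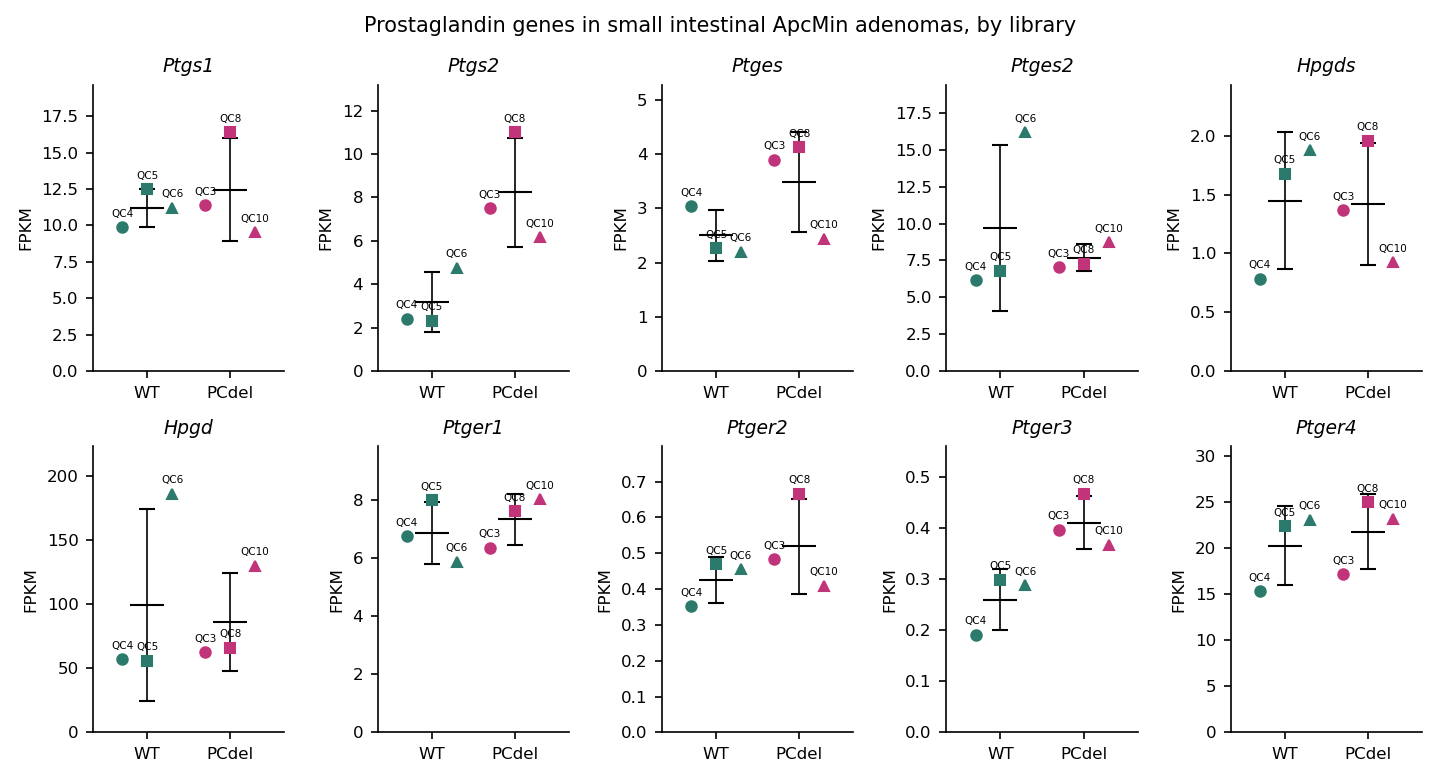
FPKM (vertical axes, each from 0) of the 10 prostaglandin genes in the 3 ApcMin WT (green) and 3 ApcMin PCdel (magenta) libraries, with 1 point per library and bars for the mean ± SD (n = 3 per group). Ptgs2 lies between 2.32 and 4.76 in WT and between 6.17 and 11.0 in PCdel adenomas, Ptger3 is also separate at under 0.5 FPKM in every library, and Hpgd is high in QC6 and QC10.

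Ptgs2 encodes COX-2, the inducible cyclooxygenase, which is low in resting tissue and switched on by cytokines, growth factors and injury. The gene (ENSMUSG00000032487.8) lies on the plus strand at chr1:150100031-150108227 in GRCm38, and in the GENCODE M21 annotation its exons share 0.0% of their bases with another gene. Its start and its 3′ untranslated region are shown here because Ptgs2 is the gene whose groups separated, and the start of Ptgs1, whose groups overlapped, is shown for comparison. Both windows run from 250 bases before to 30 bases after the start given by RefSeq in GRCm38.p6, on the plus strand, at chr1:150099781-150100060 and chr2:36230176-36230455. Capitals in the Ptgs2 window mark the core of a cAMP response element (CRE), CGTCA, at position 14 after the start, which runs into an E-box (CACGTG) at position 17. In the third line, 30 bases of the Ptgs2 3′ untranslated region at chr1:150105794-150105823 (plus strand, GRCm38), capitals mark copies of ATTTA, the core of AU-rich elements, which in many transcripts of early response genes speed decay of the RNA.
Ptgs2 start: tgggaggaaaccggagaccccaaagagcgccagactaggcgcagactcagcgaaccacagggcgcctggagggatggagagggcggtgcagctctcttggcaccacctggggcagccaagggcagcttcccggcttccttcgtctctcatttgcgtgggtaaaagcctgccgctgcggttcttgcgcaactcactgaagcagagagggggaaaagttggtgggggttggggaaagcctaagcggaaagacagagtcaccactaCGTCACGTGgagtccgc
Ptgs1 start: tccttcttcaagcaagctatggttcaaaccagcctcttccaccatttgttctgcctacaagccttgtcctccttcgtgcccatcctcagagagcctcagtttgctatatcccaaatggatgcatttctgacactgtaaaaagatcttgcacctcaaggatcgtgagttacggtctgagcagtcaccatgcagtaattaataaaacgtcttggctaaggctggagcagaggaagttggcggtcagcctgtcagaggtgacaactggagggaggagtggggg
Ptgs2 3′ untranslated region: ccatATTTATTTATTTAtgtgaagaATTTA

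These sequences differ in base composition, with 61.4% G and C in the Ptgs2 window and 49.6% in that of Ptgs1. Short motifs were searched on both strands in the 9 of the 10 genes with a RefSeq window, Ptger1 being without one. CGTCA, the CRE core, was in 1 of the 9, Ptgs2, and in 20.8% of the 32851 windows of all genes. TATAAA, the letters of the TATA box, was in 1 of the 9, Hpgd at position 5 after the RefSeq start, and in 13.6% of all windows. That start differs from the one in the data. The Hpgd window ended at chr8:56294581, upstream of the gene start in the data at chr8:56294585 (plus strand). TGANTCA, the AP-1 site, was in 0 of the 9 and in 7.81% of all windows. CACGTG, the E-box, was in 2 of the 9, Ptgs2 and Ptges2, and in 7.15% of all windows. A match describes the letters and is not a shown binding site.

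The longest annotated 3′ untranslated region of Ptgs2 held 14 copies of ATTTA, overlapping ones included, in 2445 bases, or 5.73 per kilobase. Among 20397 genes the median was 1 copy, and 3.11% had as many as Ptgs2 or more. Ptgs1 held 0 copies in 921 bases. Of the other genes, Ptges and Ptger1 held 0, Hpgds 2, Ptges2, Hpgd and Ptger3 4 each, Ptger4 5 and Ptger2 6 copies. Ptgs2 thus held the most copies of the 10 genes, and Ptgs1, with Ptges and Ptger1, the fewest.

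Ptgs2 FPKM was 2.41, 2.32 and 4.76 in WT adenomas (here and throughout in the order QC4, QC5, QC6), and 7.50, 11.0 and 6.17 in PCdel adenomas (in the order QC3, QC8, QC10). Every PCdel library was above every WT library, with QC6 the highest of the WT and QC10 the lowest of the PCdel libraries. The means were 3.16 ± 1.39 (SD, n = 3) and 8.23 ± 2.51 (SD, n = 3), 2.6-fold apart. The log2 fold change was 1.16 with a standard error of 0.28 and a 95% interval of 0.50 to 1.82, at an unadjusted limma p of 0.00448, rank 53 of the 14240 genes by p, and an adjusted p of 1.0. An exact permutation test gave p = 0.1, the smallest that 3 libraries against 3 allow. Over 15 alternative settings the log2 fold change lay between 0.96 and 1.44 and the unadjusted limma p between 0.000202 and 0.0174, while the adjusted p lay between 0.198 and 1.0. The Ptgs2 difference was therefore larger than the spread between these libraries when taken alone, and did not pass the correction over all genes. Its antisense neighbours Ptgs2os and Ptgs2os2 stayed at or below 0.0602 and 0.367 FPKM.

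Ptgs1 encodes COX-1, the cyclooxygenase that many cells make all the time, and in the intestinal epithelium it is known as a gene of tuft cells. It lies on the plus strand at chr2:36230426-36252272. Ptgs1 FPKM was 9.86, 12.5 and 11.2 in WT and 11.4, 16.4 and 9.54 in PCdel adenomas. The highest and the lowest library were both PCdel, QC8 and QC10, and the groups overlapped. The means were 11.2 ± 1.31 and 12.4 ± 3.52 (SD, n = 3 each), and the log2 fold change was 0.12 with a 95% interval of -0.35 to 0.59 (limma adjusted p = 1.0, exact permutation p = 0.8). With coverage scaled by depth it was 0.31 (limma unadjusted p = 0.133, adjusted p = 1.0), and of the PCdel libraries only QC10 lay within the WT values.

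Since only 1 of the cyclooxygenases separated the groups, their balance was computed per library, as a description without a test. Ptgs1 made up 80.3%, 84.3% and 70.1% of the summed cyclooxygenase FPKM in WT and 60.4%, 59.8% and 60.7% in PCdel adenomas. The PCdel libraries lay close together and all below the WT libraries, at 60.3% ± 0.497 against 78.3% ± 7.35 (SD, n = 3 each). In FPKM the Ptgs1 level was thus above that of Ptgs2 in every library, by a smaller margin in PCdel adenomas. Which of them was higher depended on the measure. By the mean read coverage that was also deposited, Ptgs1 made up 61.5%, 67.8% and 54.7% in WT and 43.9%, 42.8% and 44.9% in PCdel adenomas, so that Ptgs2 was above Ptgs1 in all PCdel libraries. The Ptgs1 share was lower in PCdel adenomas, without overlap, by both measures, which come from the same libraries. With Ptgs1 FPKM little different between the groups, this share restates the higher Ptgs2 and is not a separate result. The summed cyclooxygenase FPKM was 12.3, 14.8 and 15.9 in WT and 18.9, 27.4 and 15.7 in PCdel adenomas. These sums overlapped through QC10 on the FPKM scale and did not overlap in TPM, where they were 21.5 to 26.3 and 27.5 to 49.9.

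**Figure D2:**
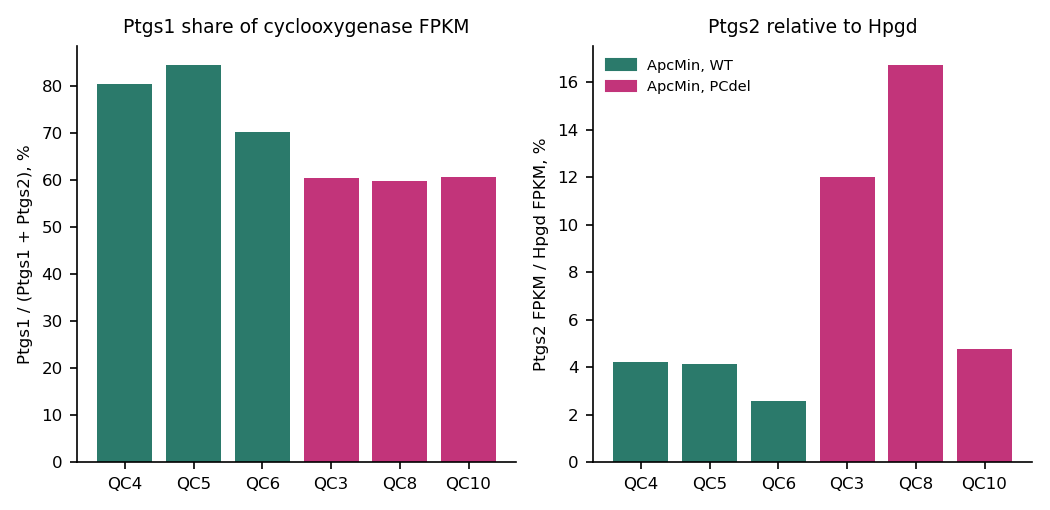
Left, Ptgs1 as a percent of the summed FPKM of Ptgs1 and Ptgs2, and right, Ptgs2 FPKM as a percent of Hpgd FPKM, both in FPKM, with 1 bar per library from 0 (ApcMin WT green, ApcMin PCdel magenta) and no error bars. The PCdel bars lie between 59.8% and 60.7% on the left, below all WT bars, and between 4.76% and 16.7% on the right, above all WT bars.

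Of the terminal synthases, Ptges encodes the inducible microsomal prostaglandin E synthase that commonly works with COX-2. Ptges FPKM was 3.04, 2.27 and 2.20 in WT and 3.90, 4.13 and 2.44 in PCdel adenomas. QC3 and QC8 were above every WT library, and QC10 lay below QC4, so the groups overlapped. The means were 2.5 ± 0.463 and 3.49 ± 0.916 (SD, n = 3 each), and the log2 fold change was 0.34 with a 95% interval of -0.10 to 0.79 (limma p = 0.11, adjusted p = 1.0, exact permutation p = 0.2). Without QC10 the log2 fold change was 0.53 at an unadjusted limma p of 0.0134 and an adjusted p of 0.953. QC10 was thus the PCdel library with the lowest Ptgs1, Ptgs2 and Ptges.

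Ptges2 encodes a second, constitutively made E synthase. Ptges2 FPKM was 6.15, 6.80 and 16.2 in WT and 7.02, 7.29 and 8.72 in PCdel adenomas. QC6 alone was high, at more than every other library, and the remaining WT libraries lay just below the PCdel libraries. The means were 9.72 ± 5.62 and 7.68 ± 0.912 (SD, n = 3 each), and the log2 fold change was -0.19 with a 95% interval of -0.98 to 0.60 (limma adjusted p = 1.0, exact permutation p = 1.0). Without QC6 it was 0.21, so the sign of the Ptges2 difference was that of 1 library. In mean read coverage QC6 stood out less, at 41.5 against 32.0 to 36.6 in the other libraries, and with coverage scaled by depth the log2 fold change was -0.01.

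Hpgds encodes the hematopoietic prostaglandin D synthase, known from mast cells, other immune cells and tuft cells. Hpgds FPKM was 0.786, 1.68 and 1.88 in WT and 1.37, 1.96 and 0.926 in PCdel adenomas. Each group held low and high libraries, and the means of 1.45 ± 0.582 and 1.42 ± 0.516 (SD, n = 3 each) were nearly equal. The log2 fold change was -0.01 with a 95% interval of -0.58 to 0.56 (limma adjusted p = 1.0, exact permutation p = 1.0).

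Hpgd, which inactivates prostaglandin E2 and is known as a gene of differentiated enterocytes that is often lost in colorectal tumours, had the highest level of the 10 genes in both genotypes. Its mean lay above 93.3% of the genes tested, where Ptgs1 lay above 54.9% and Ptgs2 above 34.2%. Hpgd FPKM was 56.9, 56.0 and 186 in WT and 62.5, 65.9 and 130 in PCdel adenomas. QC6 and QC10 were high, 1 in each group, and the other libraries lay close together. The means were 99.5 ± 74.6 and 86.0 ± 37.8 (SD, n = 3 each), and the log2 fold change was -0.05 with a 95% interval of -1.28 to 1.19 (limma adjusted p = 1.0, exact permutation p = 1.0). Without QC6 the log2 fold change was 0.52 and the groups no longer overlapped. Fewer libraries then have to separate, and the share of all genes that did so was not computed. The width of the interval leaves Hpgd the least well determined of the 10 genes.

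The summed FPKM of the 10 enterocyte markers, of which Apoa1 was the most abundant, was 26200 in QC6 and 15800 in QC10, the libraries in which Hpgd was high, against 9860 to 11700 in the rest. In QC6 all 10 markers were above the libraries other than QC10. In QC10 only 4 of the 10 were above those libraries (Fabp2, Apoa1, Lct and Anpep), and its sum came mainly from Apoa1 (7620 FPKM) and Fabp2 (3510 FPKM). By group the sum ranged from 10500 to 26200 in WT and from 9860 to 15800 in PCdel adenomas. The part of enterocyte content in the Hpgd values was not tested. Set against Hpgd within each library, Ptgs2 FPKM was 4.24%, 4.13% and 2.57% of Hpgd FPKM in WT and 12.0%, 16.7% and 4.76% in PCdel adenomas. Every PCdel library was above every WT library, though QC10 only just, and the log2 ratio was -4.81 ± 0.41 in WT and -3.34 ± 0.94 in PCdel adenomas (SD, n = 3 each), a description without a test. Ptgs2 alone already separated the groups, so this ratio is not a separate result.

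Among the receptors, Ptger4 encodes EP4, which couples to Gs and raises cAMP, and it was the receptor with the highest FPKM. In mean read coverage Ptger1 was above Ptger4 in QC4 (29.0 against 21.1), QC5 (33.8 against 30.3), QC3 (25.8 against 22.4) and QC10 (33.3 against 32.7). It was below Ptger4 in QC6 (24.8 against 31.5) and QC8 (32.3 against 33.6). Ptger4 FPKM was 15.3, 22.4 and 23.1 in WT and 17.2, 25.0 and 23.2 in PCdel adenomas. The lowest values were QC4 and QC3, 1 in each group, and the groups overlapped. The means were 20.3 ± 4.32 and 21.8 ± 4.11 (SD, n = 3 each), with a log2 fold change of 0.10 and a 95% interval of -0.38 to 0.59 (limma adjusted p = 1.0, exact permutation p = 0.5). In GENCODE M21, 16.5% of the exonic bases of Ptger4 are shared with other genes.

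Ptger1 encodes EP1, which signals through calcium. Ptger1 FPKM was 6.77, 8.01 and 5.88 in WT and 6.36, 7.63 and 8.04 in PCdel adenomas. The ranges were nearly the same, with means of 6.89 ± 1.07 and 7.35 ± 0.876 (SD, n = 3 each) and a log2 fold change of 0.08 with a 95% interval of -0.25 to 0.42 (limma adjusted p = 1.0, exact permutation p = 0.6). Ptger1 lies on the plus strand at chr8:83666833-83672753. Whether the counting used strand is not given in the sources used here, and the levels of Ptger1 and Ptger4 are uncertain for that reason. In GENCODE M21 a larger part of the exonic bases is shared with other genes for Ptger1 than for Ptger4. The level of Ptger1 is therefore the more uncertain.

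Ptger2 and Ptger3 were below 1 FPKM in every library and took their values from the fit of all 27208 genes above 0 in at least 1 library. Ptger2 encodes EP2, which also couples to Gs. Ptger2 FPKM was 0.352, 0.470 and 0.456 in WT and 0.484, 0.666 and 0.409 in PCdel adenomas, overlapping through QC10, with a log2 fold change of 0.09 and a 95% interval of -0.10 to 0.28 (limma adjusted p = 0.991, exact permutation p = 0.4). Ptger3 encodes EP3, which couples to Gi and lowers cAMP. Ptger3 FPKM was 0.191, 0.299 and 0.288 in WT and 0.397, 0.467 and 0.367 in PCdel adenomas. All PCdel libraries were above all WT libraries, as for 5.3% of the 27208 genes (2.66% were higher at an unadjusted p under 0.05), at means of 0.259 ± 0.0596 and 0.41 ± 0.0515 (SD, n = 3 each). On the log2 scale of FPKM + 1, which understates changes at such low levels, the difference was 0.16 with a 95% interval of 0.04 to 0.29 (limma unadjusted p = 0.0196, adjusted p = 0.991, exact permutation p = 0.1). The read numbers behind these values are unknown.

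**Figure D3:**
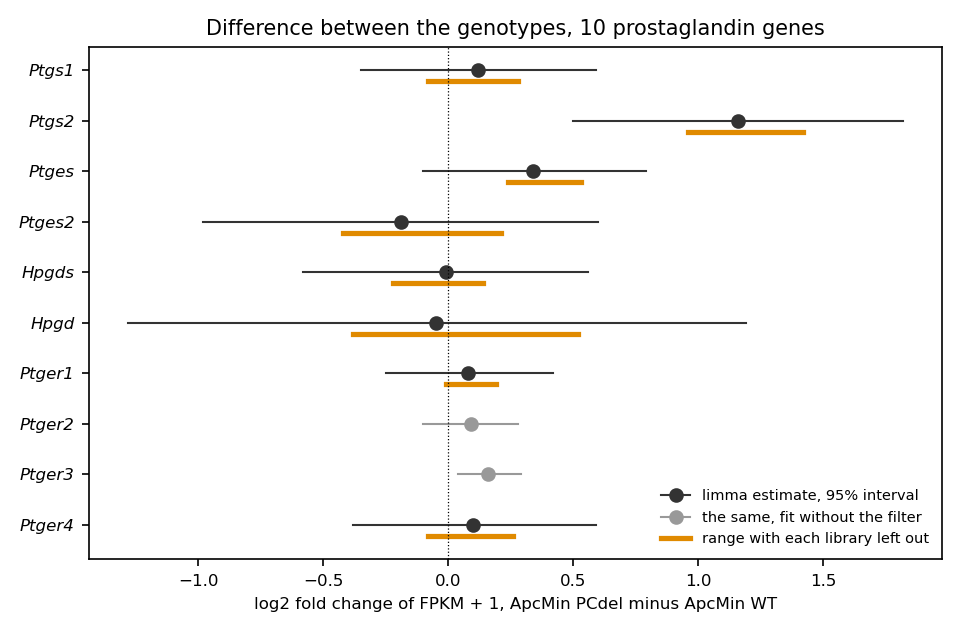
Log2 fold change of FPKM + 1, ApcMin PCdel minus ApcMin WT (horizontal axis), for the 10 prostaglandin genes, with the limma estimate (dot), its 95% interval (thin line) and the range with each library left out in turn (orange). The interval of Ptgs2, 0.50 to 1.82, lies above 0, as does that of Ptger3 in the fit without the filter (grey), and the interval of Hpgd is the widest, -1.28 to 1.19.

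Ordered by mean FPKM, both genotypes began with Hpgd, Ptger4 and Ptgs1 and ended with Ptges, Hpgds, Ptger2 and Ptger3. Ptgs2 stood at rank 6 in WT, where all its libraries were below those of Ptger1, and at rank 4 in PCdel adenomas, ahead of Ptges2 and Ptger1. Neighbours whose ranges overlapped were Ptgs1 with Ptges2, Ptges2 with Ptger1 and Ptgs2 with Ptges in WT, and their order differed between libraries. In PCdel adenomas the order of Ptgs2 with Ptges2 and of Ptges2 with Ptger1 differed between libraries. There the ranges of Ptgs1 and Ptgs2 and of Ptger2 and Ptger3 overlapped too, but the first of each pair was the higher in all 3 libraries by FPKM. The step from Hpgd to Ptger4 and that from Ptges to Hpgds had no overlap in either genotype. This order is that of FPKM, and in mean read coverage it differed in part, as for Ptger4 and Ptger1.

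The genes whose profile over the 6 libraries was most like that of a prostaglandin gene were found by the mean absolute difference of centred log2(FPKM + 1) among genes with a mean of at least 1 FPKM. For Ptgs2, which itself deviated by 0.581 on average from its mean, the nearest were Zfp180 (0.167), Trim25 (0.214) and Ighv1-73 (0.214). Zfp180 and Trim25 were low in QC4 and QC5 and high in the remaining libraries, QC6 included. Ptgs1 was nearest to Flnc (0.0139), Herc1 (0.0523) and Areg (0.0543), against its own deviation of 0.185. Hpgds was nearest to Slc35e2 (0.0695), Hspb7 (0.0735) and Cpeb4 (0.0799), against 0.247. Hpgd was nearest to Gm11127 (0.078), Tymp (0.119) and Slc6a19 (0.125), against 0.6, and Slc6a19, the neutral amino acid transporter of the enterocyte brush border, shared its high values in QC6 and QC10. These likenesses are descriptions with no test.

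Upstream of the cyclooxygenases, 13 of 18 phospholipase A2 genes were tested, and 0 had an unadjusted limma p under 0.05, beside 3.38% of all genes tested. Their median log2 fold change was 0.07. Pla2g2a, the secreted phospholipase known as a modifier of polyp number in ApcMin mice, had the highest mean FPKM. It was at 364, 311 and 197 FPKM in WT and 288, 246 and 256 in PCdel adenomas, with overlapping groups. Whether active enzyme was made from this RNA was not measured. Pla2g4c varied most, from 3.10 FPKM in QC10 to 450.0 in QC8, where it was above Pla2g2a. Pla2g16 was the only 1 of the 13 tested genes without overlap, beside 7.54% of all genes tested. It was at 27.5, 28.4 and 27.9 FPKM in WT and 34.4, 30.6 and 31.9 in PCdel adenomas (log2 fold change 0.20, limma p = 0.0661, exact permutation p = 0.1). Pla2g4a, the cytosolic phospholipase that releases arachidonic acid for the cyclooxygenases, lay between 9.42 and 12.7 FPKM with overlapping groups.

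Of the other prostanoid synthases, 4 of 8 were tested, 0 had an unadjusted limma p under 0.05, and all 4 had a slightly negative log2 fold change (median -0.13, beside 0.04 for all genes tested), against 2 of 4 in TPM. Cbr1, a carbonyl reductase that can turn prostaglandin E2 into F2α, was the most abundant, at 72.1 to 117 FPKM. Ptgis, the prostacyclin synthase, was below the filter at 0.534, 0.751 and 0.663 FPKM in WT and 0.928, 1.09 and 0.891 in PCdel adenomas, without overlap (limma unadjusted p = 0.0223, adjusted p = 0.991, fit of all genes). Cbr2 was also higher without overlap, at 0.640 FPKM or less in every library. Of the 27208 genes above 0 in at least 1 library, 5.3% were higher in PCdel adenomas without overlap. Thromboxane synthase (Tbxas1) ranged from 0.349 to 1.61 FPKM with overlapping groups.

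In the list of transport and further breakdown, 1 of 6 genes tested had an unadjusted limma p under 0.05, beside 3.38% of all genes tested. This was Abcc4, an exporter of prostaglandins, at 6.27, 5.35 and 3.43 FPKM in WT and 7.19, 6.73 and 7.56 in PCdel adenomas. The groups did not overlap, as for 6.0% of all genes tested with higher values in PCdel adenomas. The log2 fold change was 0.47 (limma unadjusted p = 0.0435, adjusted p = 1.0). Slco2a1, the prostaglandin uptake transporter, was between 7.06 and 10.4 FPKM, and Ptgr1, a reductase of the breakdown pathway, was the most abundant of the list at 52.9 to 80.6 FPKM, both with overlapping groups. The median log2 fold change of the list was 0.04.

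The receptors of the remaining prostanoids were scarce. Ptgdr, Ptgdr2, Ptgfr, Ptgir and Tbxa2r, for prostaglandins D2 and F2α, prostacyclin and thromboxane, were all below 1 FPKM in every library. Of the prostanoid receptors measured, only Ptger4 and Ptger1 had FPKM above that level, and that of Ptger1 is uncertain, as given above. Tbxa2r was without overlap, at 0.653 to 0.709 FPKM in WT and 0.750 to 0.878 in PCdel adenomas. Of the 27208 genes above 0 in at least 1 library, 5.3% were higher without overlap. Of the list, 3 of 8 genes were tested (Ptgfrn, Pparg and Ppard), 0 had an unadjusted limma p under 0.05, and the median log2 fold change was -0.01.

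The lipoxygenases compete with the cyclooxygenases for arachidonic acid. Of 13 lipoxygenase and leukotriene genes 8 were tested, and 1 had an unadjusted limma p under 0.05, beside 3.38% of all genes tested. Alox15 was at 1.14, 1.28 and 1.0 FPKM in WT and 2.18, 3.19 and 1.72 in PCdel adenomas. Its groups did not overlap, beside 6.0% of all genes tested in that direction. The log2 fold change was 0.63 (limma unadjusted p = 0.0095, adjusted p = 1.0). Alox12e, below the filter, was also higher without overlap at 0.174 FPKM or less, as were 5.3% of the 27208 genes above 0 in at least 1 library. Lta4h, the leukotriene A4 hydrolase, was the most abundant at 79.6 to 101 FPKM with overlapping groups. The median of the list was 0.01, with 4 of 8 log2 fold changes positive, and without QC6 it was 0.24, with 7 of 8 positive.

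Downstream of EP2 and EP4, the list of Gs signalling and cAMP response genes held 15 tested of 17. Of these, 3 had an unadjusted limma p under 0.05 and 4 did not overlap, all higher in PCdel adenomas, beside 2.7% and 6.0% of all genes tested in that direction. Of the log2 fold changes 13 were positive and 2 negative, beside 63.1% positive among all genes tested, with a median of 0.22, and 0 passed an adjusted p of 0.05. Without QC6, 12 were positive and 3 negative, and the median was 0.09. Ereg, an EGF receptor ligand, was at 6.97, 7.60 and 8.66 FPKM in WT and 17.6, 22.5 and 9.33 in PCdel adenomas, a log2 fold change of 0.92 (limma unadjusted p = 0.0171, adjusted p = 1.0). Dusp1, a phosphatase of MAP kinases, was at 7.32, 9.36 and 8.41 FPKM in WT and 11.4, 19.1 and 13.1 in PCdel adenomas, a log2 fold change of 0.71 (limma unadjusted p = 0.00895, adjusted p = 1.0). Fosb and Pde4b, an AP-1 subunit and a cAMP phosphodiesterase, were the others without overlap, with log2 fold changes of 0.60 and 0.31. QC8 was highest and QC10 lowest of the PCdel libraries for Ereg and Pde4b, as for Ptgs2. For Dusp1 and Fosb QC8 was also highest, but QC3 was lowest. Gnas, which encodes the Gs subunit itself, overlapped at 139 to 210 FPKM.

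Known inducers of Ptgs2 gave 3 of 9 tested genes with an unadjusted limma p under 0.05, and the same 3 did not overlap, all higher in PCdel adenomas, beside 2.7% and 6.0% of all genes tested. Il1a, an interleukin-1 cytokine, was at 1.24, 1.16 and 1.02 FPKM in WT and 2.03, 2.89 and 1.5 in PCdel adenomas (log2 fold change 0.53). Tnf was at 1.15, 1.17 and 1.07 FPKM in WT and 2.74, 1.83 and 1.38 in PCdel adenomas (log2 fold change 0.46). Cebpd, a transcription factor of the acute phase response, was at 5.57, 6.06 and 5.40 FPKM in WT and 7.07, 7.38 and 6.63 in PCdel adenomas (log2 fold change 0.27). Each was above the WT libraries in all PCdel libraries, and none passed the adjusted threshold. Il1a and Tnf lay near the filter of 1 FPKM. In QC10 they were only slightly above the highest WT values, at 1.5 against 1.24 and 1.38 against 1.17. Il1b had a log2 fold change of 0.64 with overlapping groups, and Il6 ranged from 0.0854 FPKM in QC10 to 2.74 in QC8. Hif1a was the most abundant of the list at 54.4 to 75.6 FPKM with overlapping groups. The list's median was 0.16, and without QC6 it was 0.07, with 6 positive and 3 negative log2 fold changes.

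**Figure D4:**
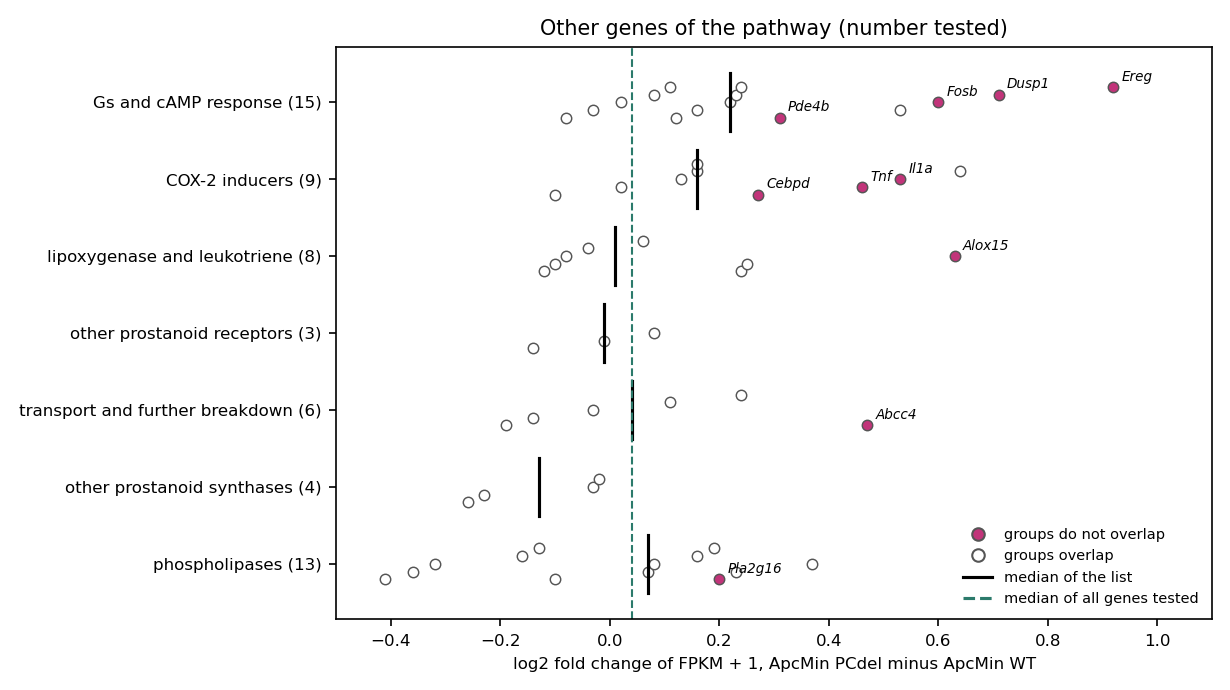
Log2 fold change of FPKM + 1, ApcMin PCdel minus ApcMin WT, of each tested gene (points) in the lists of the surrounding pathway, with the number tested in brackets, list medians as black bars and the median of all genes tested as a dashed line at 0.04. Filled points, whose groups do not overlap, all lie to the right of 0. Of all genes tested, 7.54% did not overlap, and 6.0% did so with higher values in PCdel adenomas. The medians of the cAMP response (0.22) and COX-2 inducer (0.16) lists are the farthest to the right.

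Cell types that can make these transcripts also varied between the libraries. Fibroblasts are known as a source of COX-2 in intestinal adenomas, and all 10 fibroblast markers had a positive log2 fold change (median 0.29), as did 63.1% of all genes tested. Of these, 3 (Pdgfra, Dcn and Foxl1) had an unadjusted limma p under 0.05 and did not overlap, beside 2.7% and 6.0% of all genes tested. Summed fibroblast markers were 267, 296 and 200 FPKM in WT and 399, 378 and 252 in PCdel adenomas, so that QC3 and QC8 were above every WT library and QC10 was not. Without QC6, 8 of the 10 markers were positive with a median of 0.13. All 8 smooth muscle markers also had a positive log2 fold change, with sums of 214 to 352 and 319 to 457 FPKM. Of macrophage markers, 9 tested of 10, 8 had a positive log2 fold change with a median of 0.34. Adgre1, C1qb and C1qc were higher and Lyz2 lower without overlap, beside 7.54% of all genes tested in either direction. Their sums, of which Lyz2 was the largest part at 138 to 198 FPKM, were 268 to 310 and 271 to 298 FPKM. Since Lyz2 was the tested marker with a negative log2 fold change, these sums do not show the direction of the other markers. Neutrophil markers, 5 tested of 8, summed to 8.88 to 23.5 and 13.8 to 30.5 FPKM, with the granule gene Elane at 0 in all libraries. Of the 5 tested, 1 (Retnlg) was higher without overlap, beside 6.0% of all genes tested. All 5 neutrophil markers tested had a positive log2 fold change, and 2 of 5 did without QC6. The part of these cell types in the Ptgs2 difference was not tested.

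For Ptgs1 and Hpgds the cell types of interest are tuft and mast cells. Tuft cell markers, 7 tested of 10, had no unadjusted limma p under 0.05 and a median log2 fold change of 0.33 (0.76 without QC6), and their sum was highest in QC8 at 93.9 FPKM, the library with the highest Ptgs1. In the other libraries it lay between 48.4 and 72.0 FPKM, and Il25, Chat and Gfi1b were below 1 FPKM in all. Avil was the largest part of the sum, at 31.1 to 53.9 FPKM, and was itself highest in QC3. Dclk1, Trpm5, Pou2f3, Sh2d6, Il17rb and Siglecf were highest in QC8 and next in QC6. In QC6 Ptgs1 was at 11.2 FPKM, between QC4 and QC5. Mast cell markers, 9 tested of 11, had no unadjusted limma p under 0.05, with 8 of 9 log2 fold changes negative and a median of -0.57. They summed to 470 to 1000 FPKM in WT and 267 to 997 in PCdel adenomas. Their lowest sum was in QC10 and the next in QC8, the library with the highest Hpgds. The part of either cell type in the Ptgs1 and Hpgds values was not tested.

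**Figure D5:**
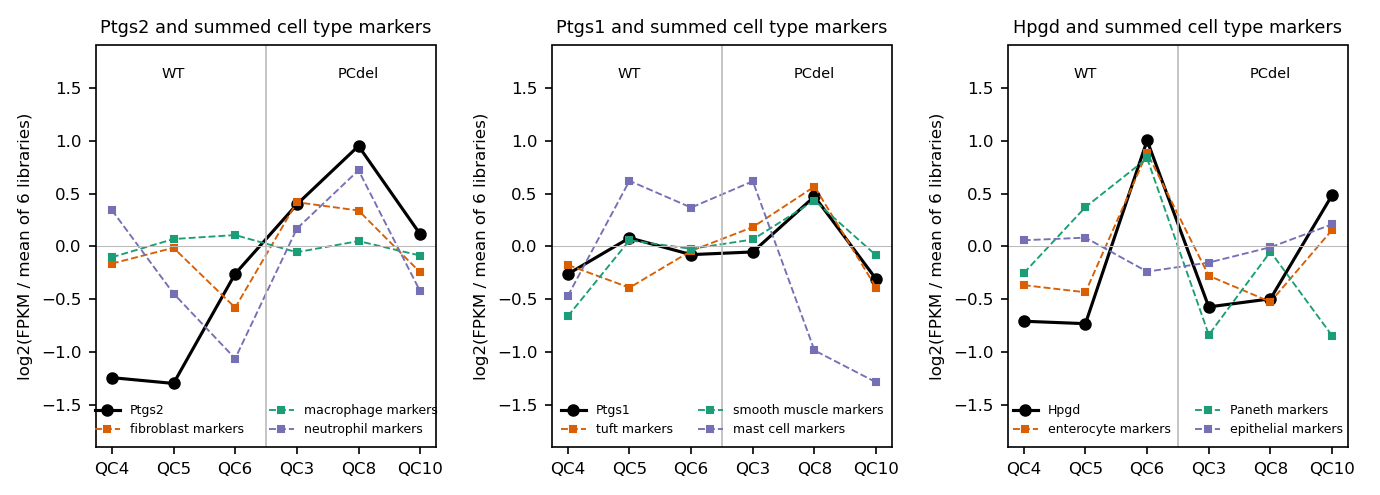
Log2 of FPKM over its mean in the 6 libraries (vertical axis) for Ptgs2, Ptgs1 and Hpgd (black) and for summed cell type markers (dashed), by library, with ApcMin WT left and ApcMin PCdel right of the grey line. Hpgd and the enterocyte sum are both high in QC6 and QC10 (in QC10 through 4 of the 10 markers), and Ptgs2 lies higher in all PCdel libraries while the fibroblast sum is higher in QC3 and QC8 but not in QC10.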

How the data were processed

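RNA was extracted from adenomas stored in RNAlater and libraries were made with the TruSeq RNA kit and sequenced on a HiSeq2500. The study's methods name CLC Genomics Workbench 7 and a normalization in MatLab without settings, and the annotation and strand setting of the counting are not given in the sources used here. FPKM, scaled for length and library size, were deposited by the authors per gene. They also deposited TPM, summing to 1000000 per library, and unscaled mean read coverage, from which depth in aligned bases was estimated over 2089 genes with 1 transcript. Read numbers are unknown, and no counting interval was derived or count test run.

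Entries of one gene were summed. A linear model with a trended prior (limma 3.58.1, R 4.3.3) was fitted to log2(FPKM + 1), PCdel minus WT, for 14240 genes with a mean of at least 1 FPKM, with Benjamini-Hochberg adjustment at 0.05. Folds are therefore on the scale of FPKM + 1. Ptger2 and Ptger3 were fitted without the filter. Single genes were compared by two-sided exact permutation tests (scipy 1.17.1), and the fit was tested on simulated data. Motifs were searched in RefSeq windows of GRCm38.p6 and ATTTA in GENCODE M21 transcripts, whose spans matched the files for 9 of the 10 genes.

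Named were the 10 genes, and of each pathway list the most abundant gene, genes with an unadjusted p under 0.05 and tested genes without overlap. Of cell type lists, those bearing on a result were named, and for 4 genes the 3 most alike profiles. Pla2g4a, Slco2a1, Tbxas1, Il1b, Il6 and some receptors were added by role, and Pla2g4c after its values were seen. The members and lists were chosen with earlier results of these data known. Alternatives were another pseudocount, filter, unit, normalization, array weights and leaving out each library. Scaled coverage was added after seeing the data.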

Additional observations from a re-analysis of the deposited data

How the results depend on the processing

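Ptgs2 and Ptges kept a positive log2 fold change in every setting tried (Ptgs2 0.96 to 1.42 and Ptges 0.24 to 0.53 with each library left out), and no setting brought a prostaglandin gene past an adjusted p of 0.05. The sign turned for Ptges2 with array weights (0.09), for Hpgds in TPM (0.04), with array weights (0.04) and with scaled coverage, added after seeing the data (0.02), for Hpgd in TPM (0.01) and with array weights (0.29), and for Ptger1 with array weights (-0.07). When single libraries were dropped, log2 fold changes ranged from -0.08 to 0.28 for Ptgs1, -0.42 to 0.21 for Ptges2, -0.22 to 0.14 for Hpgds, -0.38 to 0.52 for Hpgd, -0.01 to 0.19 for Ptger1 and -0.08 to 0.26 for Ptger4. The cause was not tested.

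Genes past the adjusted threshold numbered 2, and 1 without the filter, 1 with median centring and 1 to 5 with a library left out. Genes with an unadjusted limma p under 0.05 that were higher in PCdel adenomas numbered 384, and 725 without the filter, 187 with a minimum of 5 FPKM, 806 with array weights and 250 to 494 with a library left out. Lower genes numbered 97, and 251 without the filter, 464 using array weights, 182 after quantile normalization, 174 after median centring and 89 to 333 with a library left out. The higher share of these calls was 79.8%, and 58.9% after quantile normalization, 59.4% without QC6, 61.4% after centring on the median and 63.5% using array weights. Prostaglandin genes without overlap numbered 1 (Ptgs2), and 2 without the filter (with Ptger3), 2 with scaled coverage (with Ptges) and 1 to 3 with a library left out, 3 being without QC6 (Ptgs2, Ptges2 and Hpgd). Leaving out QC4 or QC10 added Ptges, and leaving out QC3 added Ptger4. The share of all genes without overlap was not computed for these settings or for scaled coverage. With a library left out, fewer libraries have to separate.

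No paired analysis was possible because the labels do not give the litter or cage behind each library. With 3 libraries per group, differences the size of those of most prostaglandin genes are within the spread, and FPKM without read numbers limits what can be said of Ptger2 and Ptger3.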
